A study of Homo sapiens with 6 samples.

Results

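The 10 genes described here belong to the NODAL and SMAD pathway: NODAL, LEFTY1, LEFTY2, CER1, ACVR1B, BAMBI, SMAD2, SMAD3, SMAD7 and TGIF1. ZIC2-bound regions were assigned to a gene when their nearest edge lay within 100 kb of its start on hg19, with starts given to the nearest kb. This rule took 25 of the 16077 different regions in the deposited lists, of which 22 were in the wild-type list (12966 regions) and 13 in the knockout list (7231 regions). The rule that assigns regions to the genes uses no measured value but position.

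The assay was CUT&Tag, in which an antibody against ZIC2 directs a transposase to cut and tag DNA beside the bound protein. The cells were H1 (WA01), an established human embryonic stem cell line, either wild type (WT, 2 anti-ZIC2 libraries) or carrying a Cas9-made deletion of the zinc-finger gene ZNF263, which the labels call a homogeneous knockout (KO, 2 anti-ZIC2 libraries). Both genotypes were profiled with the same ZIC2 antibody, each also has 1 normal rabbit IgG library, and no treatment or time course is given. The labels do not say whether the knockout is 1 clone or whether the replicates were separate cultures, and each genotype is represented by 1 list of region positions without heights, read counts or scores, so read depth is unknown and the values below have no replicate error. The comparison asks where ZIC2 was called near these genes with and without ZNF263. A region present in 1 list only was not called in the other, which is not a measured absence of ZIC2, and with 1 list per genotype no difference between genotypes could be tested.

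NODAL is a secreted ligand of the TGF-beta family that signals through type I and type II activin receptors, with ACVR1B (also named ALK4) as a type I receptor. The activated receptor phosphorylates SMAD2 and SMAD3, which enter the nucleus with SMAD4 and act on target genes with partners such as FOXH1. LEFTY1, LEFTY2 and CER1 are secreted inhibitors, BAMBI is a membrane pseudoreceptor without kinase activity, SMAD7 is an inhibitory SMAD, and TGIF1 is a homeodomain corepressor that binds SMADs. In human embryonic stem cells this pathway helps to maintain pluripotency, and in the embryo it drives mesendoderm formation. ZIC2, a DNA-binding zinc-finger protein, is active in pluripotent and early neural cells.

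The promoters of CER1, SMAD2, BAMBI and NODAL are shown as examples of promoters of these genes. CER1, SMAD2 and BAMBI had a ZIC2 region at the start, called in WT only, in KO only and in both lists, respectively, whereas the nearest region to NODAL lay 14.1 kb away. Each sequence runs from 250 bases before to 50 bases after a start in RefSeq (GRCh38.p14) and reads 5′ to 3′ on the gene's strand. SMAD2 has 2 RefSeq promoters that overlap, and the first is shown. Capitals mark every match, on either strand and with overlaps counted, to 4 strings of letters: CAGCAGG (a ZIC core), CAGAC (a SMAD element), AATCCACA (a FOXH1 element) and GGAGGA (for ZNF263). The regions are on hg19, so no sequence was read at the regions themselves, and whether a RefSeq start is the start used for the distances was not tested.
CER1: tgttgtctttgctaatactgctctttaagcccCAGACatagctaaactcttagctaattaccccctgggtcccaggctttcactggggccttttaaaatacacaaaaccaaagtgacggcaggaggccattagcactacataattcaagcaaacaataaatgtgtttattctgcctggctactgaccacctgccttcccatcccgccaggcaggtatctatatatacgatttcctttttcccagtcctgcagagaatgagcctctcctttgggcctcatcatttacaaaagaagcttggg
SMAD2: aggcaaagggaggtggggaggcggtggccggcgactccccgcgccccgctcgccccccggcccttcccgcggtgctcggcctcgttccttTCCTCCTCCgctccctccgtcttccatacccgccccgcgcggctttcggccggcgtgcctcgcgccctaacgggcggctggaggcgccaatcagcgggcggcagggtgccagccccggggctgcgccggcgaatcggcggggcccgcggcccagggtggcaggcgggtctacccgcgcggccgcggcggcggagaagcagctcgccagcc
BAMBI: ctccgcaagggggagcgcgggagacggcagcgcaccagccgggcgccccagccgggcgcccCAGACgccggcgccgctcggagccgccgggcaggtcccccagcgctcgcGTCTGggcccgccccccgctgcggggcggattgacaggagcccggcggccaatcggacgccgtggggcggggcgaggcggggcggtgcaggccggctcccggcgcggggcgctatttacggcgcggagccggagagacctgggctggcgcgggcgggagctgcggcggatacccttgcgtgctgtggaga
NODAL: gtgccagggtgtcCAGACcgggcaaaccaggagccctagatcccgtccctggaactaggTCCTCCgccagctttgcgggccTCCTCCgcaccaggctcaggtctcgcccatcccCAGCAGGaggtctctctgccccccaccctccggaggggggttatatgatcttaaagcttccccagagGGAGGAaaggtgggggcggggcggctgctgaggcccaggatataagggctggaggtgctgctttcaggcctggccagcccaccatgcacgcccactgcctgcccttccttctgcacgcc

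The CER1 sequence held 1 CAGAC and none of the other strings, and it was AT-rich beside the others, with a GC content of 45.3% against 78.7% for the SMAD2 sequence shown, 80.0% for BAMBI and 66.0% for NODAL. The median over all 35116 RefSeq promoters was 58.7%. The BAMBI sequence held 2 CAGAC matches, 1 on each strand. The SMAD2 sequence held 2 overlapping GGAGGA matches on the reverse strand and no CAGCAGG or CAGAC. The NODAL sequence held 1 CAGCAGG, 1 CAGAC and 3 GGAGGA. Of the 4 sequences shown, the ZIC core was in that of NODAL. TGIF1, which also had a region at the start, has 7 RefSeq promoters, of which 1 held CAGCAGG, and which of them belongs to the start used here is not known.

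RefSeq sequences were at hand for 8 of the 10 genes, with 22 promoters in all, since some genes have several starts. CAGCAGG occurred in 3 of the 22 (1 of NODAL, 1 of the 5 of SMAD3 and 1 of the 7 of TGIF1), against 10.5% of all promoters. CAGAC occurred in 14 of the 22, against 45.3% of all promoters, and GGAGGA in 12 of the 22, against 36.6%. AATCCACA occurred in 0 of the 22, against 0.817% of all promoters. Several of these promoters overlap, so the counts are not of separate sequences. LEFTY1 and LEFTY2 sequences were not analysed here. A match describes the letters only and is not a binding site.

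All 10 starts had at least 1 WT region within 100 kb, and 8 of the 10 had at least 1 KO region. Of all 200 kb tiles of the assembled chromosomes, which include gene-poor sequence, 41.7% held a WT region and 27.6% a KO region. Within 50 kb, 8 starts had a WT region (not SMAD2 or ACVR1B) and 7 a KO region. Among regions wider than 150 bp, 8 starts had a WT region and 8 a KO region, and TGIF1 had neither. CER1 and TGIF1 were the 2 genes with WT-only regions and no other. Regions called in both lists lay near 7 genes, WT-only regions near 8 and KO-only regions near 3 (NODAL, SMAD2 and ACVR1B). Shares of tiles were not computed for 50 kb, for the width limit or for single classes, so these counts have no reference. WT regions outnumbered KO regions in 6 windows, the numbers were equal in 4 (NODAL, SMAD2, SMAD3 and BAMBI), and KO regions outnumbered WT regions in 0. LEFTY1 and LEFTY2 are both among the 6 and have 4 regions in common, so the windows are not separate. The WT list is also the longer one, with 12966 regions against 7231. There were 59.1 KO regions per 100 WT regions near the genes, close to the 55.8 of the whole lists.

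**Figure D1:**
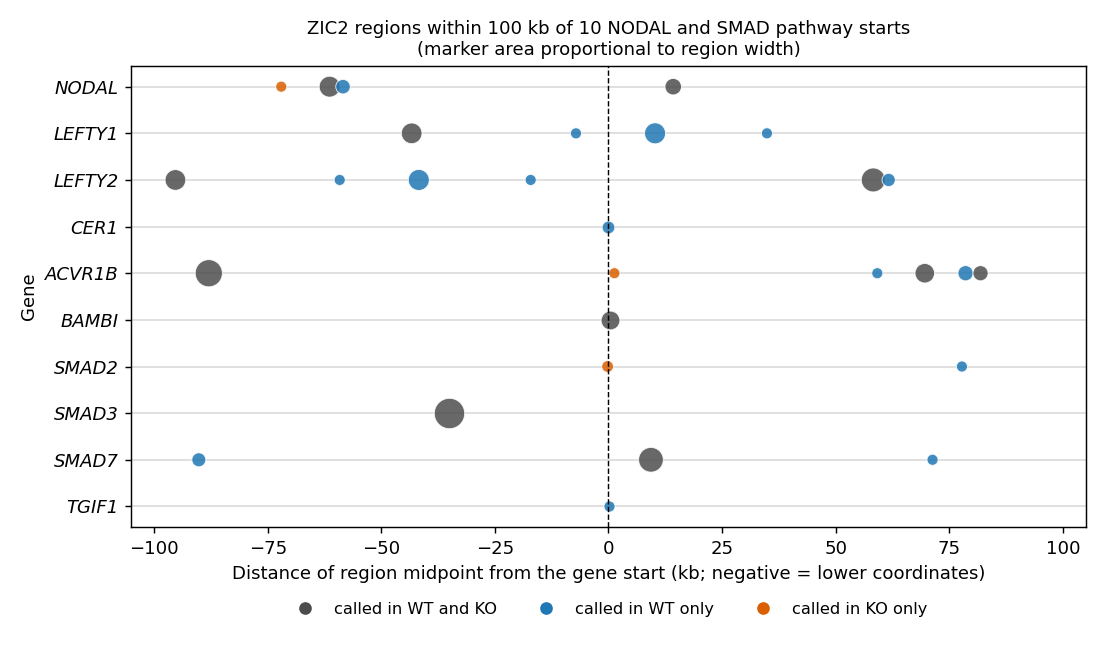
Each point is a ZIC2 region, placed by the distance of its midpoint from the gene start in kb (negative values are lower coordinates), with 1 row per gene, marker area in proportion to width and colour for the class. CER1, BAMBI, SMAD2 and TGIF1 have a region on the dashed line that marks the start, and the 4 regions between 226033438 and 226111966 on chromosome 1 appear in the rows of both LEFTY1 and LEFTY2.

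Over the 10 windows, 10 regions were shared, 12 were WT-only and 3 were KO-only. Among the WT regions near the genes, 54.5% were not called in KO (12 of 22, 95% exact Clopper-Pearson interval 32.2 to 75.6), beside 68.2% of the whole WT list. Among the KO regions near the genes, 23.1% were not called in WT (3 of 13, interval 5.04 to 53.8), beside 43.0% of the whole KO list. Of the 25 regions, 40.0% (21.1 to 61.3) were called in both, beside 25.6% of all regions. All 3 intervals include the value of the whole lists, so at this number of regions the windows could not be told from the rest. These intervals hold for counting error alone and assume that regions are independent, although neighbours may not be. Without the regions of 150 bp, the narrowest width, the shares found in 1 list were 37.5% of WT and 9.09% of KO regions near the genes, beside 56.6% and 29.8% in the whole lists. The WT regions near these genes had a summed length of 8.69 kb and the KO regions of 6.53 kb, which is 75.1% as much, beside 66.7% for the whole lists.

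**Figure D2:**
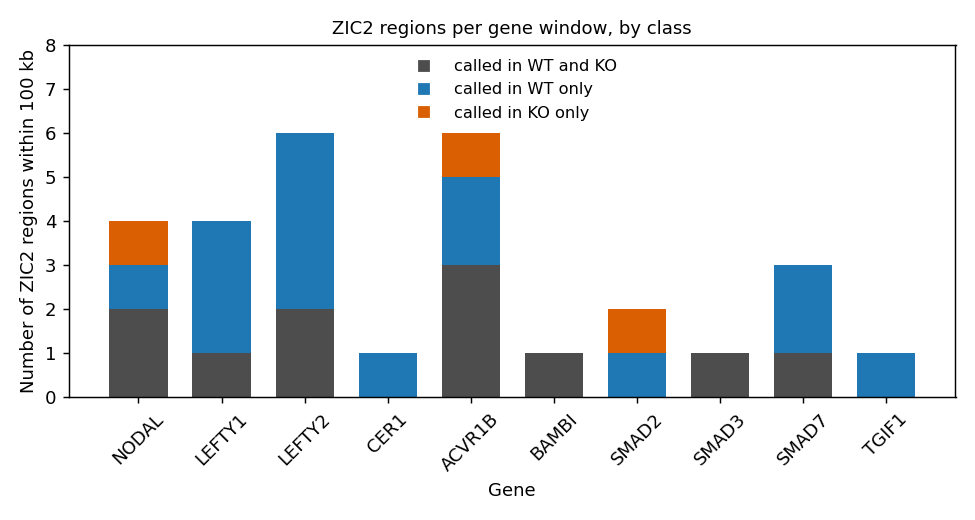
Bars give the number of ZIC2 regions within 100 kb of each gene start, stacked by class. LEFTY2 and ACVR1B have 6 regions each, CER1, BAMBI, SMAD3 and TGIF1 have 1 each, and 4 regions count for both LEFTY1 and LEFTY2.

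NODAL, the ligand of the pathway, had 4 regions, of which 2 were shared, 1 was WT-only and 1 was KO-only. The nearest, at chr10:72215096-72215428, was 333 bp wide, was called in both genotypes and lay 14.1 kb upstream of the start, with strand taken from RefSeq. The other 3 lay downstream, between 58.3 and 71.9 kb from the start. They were a WT-only region of 257 bp at chr10:72142458-72142714, a shared region of 533 bp at chr10:72139372-72139904 and a KO-only region of 150 bp at chr10:72128924-72129073. The first 2 of these were separated by 2.55 kb, so a region called in both genotypes and one called in WT only stood side by side. In RefSeq, EIF4EBP2 and PALD1 are the protein-coding neighbours of NODAL, and these distal regions were not assigned to any gene but by distance.

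The secreted inhibitors had 7 different regions, of which 2 were shared, 5 were WT-only and 0 were KO-only. The 5 of 7 WT regions not called in KO are a share near the 68.2% of the whole list. LEFTY1 and LEFTY2 are close paralogues whose starts lie 52 kb apart on chromosome 1, and 4 regions fell into the windows of both. The 6 regions of this locus comprised 4 WT-only and 2 shared ones. Between the 2 starts lay a WT-only region of 540 bp at chr1:226086996-226087535, 10.0 kb from the LEFTY1 start and 41.5 kb from the LEFTY2 start. It was wider than 92.8% of all WT-only regions. The second region between the starts, at chr1:226111817-226111966, was WT-only and had the minimum width of 150 bp. Another WT-only region of 150 bp lay on the other side of LEFTY1, at chr1:226069787-226069936, 7.06 kb from its start.

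The shared regions of the LEFTY locus lay outside the stretch between the starts. One of 523 bp at chr1:226033438-226033960 was 43.0 kb from LEFTY1 and 95040 bp from LEFTY2. One of 703 bp at chr1:226186941-226187643 lay 57.9 kb from LEFTY2, and a WT-only region of 215 bp at chr1:226190569-226190783 followed it after 2.92 kb. The 3 regions closer than 43.0 kb to a LEFTY start were WT-only. Of all WT regions on chromosome 1, 65.3% were not called in KO, and 2 of these 3 had the width of 150 bp, at which 14 of all 4877 regions were shared. How reads were placed between the similar sequences of LEFTY1 and LEFTY2 is not given in the sources.

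CER1, a secreted antagonist of NODAL and BMP ligands, had 1 region, WT-only and 198 bp wide, at chr9:14722713-14722910. It lay less than 0.5 kb from the start, closer than the rounding of the start allows to be resolved. The next region of either list was 117792 bp away.

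The receptor ACVR1B and the pseudoreceptor BAMBI had 7 regions, of which 4 were shared, 2 were WT-only and 1 was KO-only. Of their 6 WT regions, 2 were not called in KO, beside 68.2% of the whole WT list. With so few regions this difference was not tested. ACVR1B had 6 of the 7 regions. The nearest to its start, at chr12:52346237-52346386, was KO-only, 150 bp wide and 1.24 kb downstream. The nearest WT region lay 59.1 kb from that start. The other 5 lay far from it, with a shared region of 905 bp at chr12:52256598-52257502, 87.5 kb upstream, and 4 regions between 59.1 and 81.8 kb downstream. In order of distance, those 4 were WT-only (150 bp), shared (467 bp), WT-only (284 bp) and shared (282 bp). ACVRL1, another type I receptor gene, and TAMALIN are the protein-coding neighbours of ACVR1B in RefSeq.

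BAMBI had 1 region, at chr10:28966205-28966638, which was 434 bp wide and was called in both genotypes. It was the only one of the 4 regions within 1 kb of a start that was in both lists, a share near the 25.6% of all regions. The next region of either list was 144176 bp away.

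SMAD2 and SMAD3, the receptor-activated SMADs of this pathway, differed in where regions were called. SMAD2 had a KO-only region of 170 bp at the start, at chr18:45456739-45456908, and a WT-only region of 150 bp 77.7 kb upstream. It had no region called in both. SMAD3 had a single shared region of 1132 bp at chr15:67322281-67323412, 34.6 kb upstream of the start. It was the widest of the 25 regions and wider than 98.0% of all shared regions. The 2 genes were thus unlike in class, width and distance, and SMAD6, the neighbour of SMAD3 at lower coordinates in RefSeq, is the gene of another inhibitory SMAD.

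SMAD7, which blocks receptor access and promotes receptor breakdown, had 3 regions. A shared region of 748 bp at chr18:46485988-46486735 lay 8.99 kb upstream of the start and was wider than 83.0% of all shared regions. The other 2 were WT-only, with 239 bp at 90.0 kb downstream and 150 bp at 71.3 kb upstream. TGIF1, which recruits histone deacetylases to SMAD complexes, had a WT-only region of 150 bp at the start, at chr18:3450090-3450239, and the next region was 152447 bp away. SMAD2, SMAD7 and TGIF1 are all on chromosome 18, where 71.4% of 248 WT regions were not called in KO. Of the 5 WT regions near these 3 genes, 4 were WT-only.

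Regions at a start had widths that are common in their classes. Of the 10 starts, 4 had a region within 1 kb, and all 4 lay within 0.5 kb: CER1 and TGIF1 (WT-only), SMAD2 (KO-only) and BAMBI (shared). With ACVR1B, whose KO-only region was 1.24 kb away, 5 starts had a region within 2 kb. Of all positions up to the last region of each chromosome, 1.14% lay within 1 kb of a region, but gene starts are not average positions, and other starts on hg19 were not analysed here. At these 5 starts the widths were 198, 150, 170, 434 and 150 bp. The regions of CER1, SMAD2 and BAMBI were wider than 53.8%, 50.9% and 46.3% of all regions of their class. Those of TGIF1 and ACVR1B had the narrowest width, as did 30.3% of all regions. The 4 regions within 1 kb had a median width of 184 bp, beside 235 bp for all regions. The median was 345 bp for the 4 between 1 and 10 kb (1 shared, 2 WT-only, 1 KO-only) and 428 bp for the 4 between 10 and 50 kb (3 shared, 1 WT-only). The other 13 regions lay between 50 and 100 kb (5 shared, 7 WT-only, 1 KO-only) and had a median of 257 bp, so width did not follow distance in 1 direction.

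Shared regions near the genes were wide, as in the lists as a whole. Their median was 528 bp (282 to 1132 bp) beside 460 bp for all shared regions, and WT-only regions had a median of 174 bp (150 to 540 bp) beside 181 bp. The 3 KO-only regions had 150, 150 and 170 bp beside a median of 167 bp. The edges of all 10 shared regions were identical in the 2 lists, so their width is a joint value of both genotypes and not a measurement in either. Of the 10 regions of at least 300 bp, 9 were called in both genotypes (90.0%). Of all 6145 regions of that width, 50.8% were. With a limit of 500 bp the gap was smaller, with 6 of 7 shared (85.7%) beside 61.7% of all 2948. No interval was computed for these shares, and their difference from all regions was not tested. The exception at both limits was the WT-only region of 540 bp between LEFTY1 and LEFTY2. Of the 8 regions of 150 bp, 0 were shared, 6 were WT-only and 2 were KO-only, and in all 14 of 4877 regions of that width were shared.

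**Figure D3:**
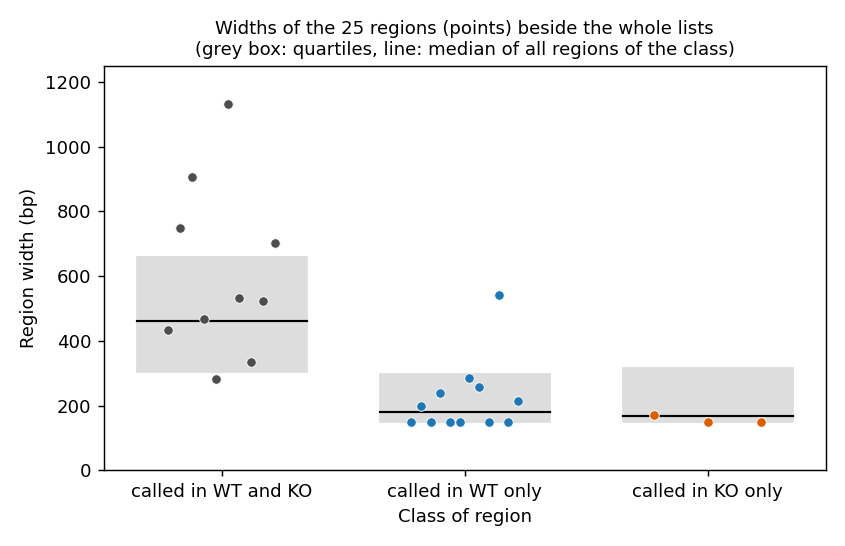
Points are the widths in bp of the 25 regions, by class. The grey boxes span the quartiles and the black lines give the medians of all regions of each class, and the WT-only point at 540 bp is the region between LEFTY1 and LEFTY2.

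The number of regions per window differed between the genes, with a median of 2.5. LEFTY2 and ACVR1B had 6, NODAL and LEFTY1 had 4, SMAD7 had 3, SMAD2 had 2, and the other 4 genes had 1. Across 15247 tiles of 200 kb over the assembled chromosomes, 46.2% held at least 1 region, with a mean of 1.05 per tile. At least 4 regions were found in 7.86% of tiles, and at least 6 in 2.81%. Tiles include gene-poor sequence and are a description of the lists, not a comparison with other genes. The 100 kb limit passed between regions at 95040 bp from LEFTY2 (shared, 523 bp), just inside, and at 100250 bp from SMAD3 (WT-only, 150 bp), just outside.

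**Figure D4:**
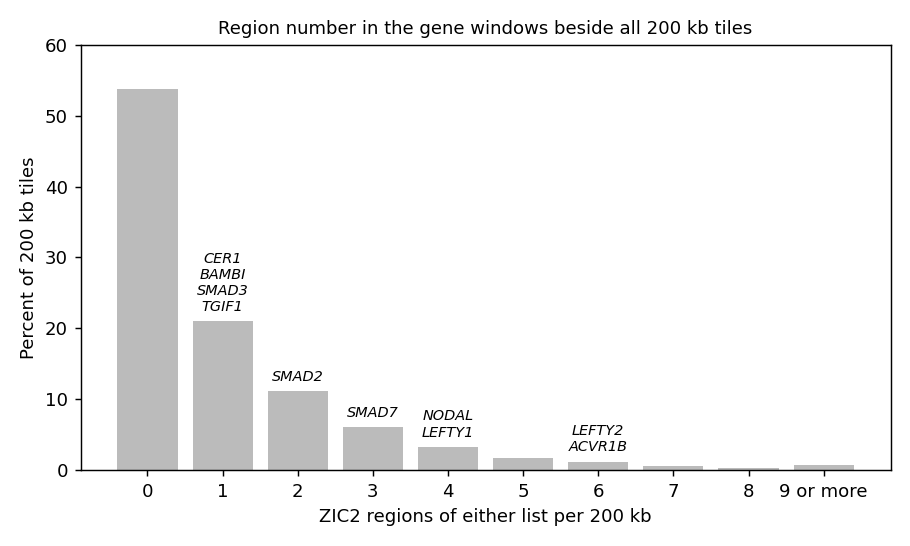
Bars give the percent of 200 kb tiles that hold each number of ZIC2 regions of either list. Gene names stand above the number found in their own windows, from 1 for CER1, BAMBI, SMAD3 and TGIF1 to 6 for LEFTY2 and ACVR1B.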

How the data were processed

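The authors deposited 1 list of ZIC2 regions per genotype, with chromosome, start and end as the only columns. The submitters' processing notes name Bowtie2, Picard and the build hg19. Not given in the sources used here are the peak caller, its threshold, the use of the IgG libraries and the pooling of replicates. Other values, such as a score or read count, were not used. Lists were read with Python 3.11.15, pandas 2.3.3, numpy 2.4.6 and scipy 1.17.1, and the routines were tested on simulated data. Regions that overlapped by at least 1 bp were called shared. Distances run from the start to the nearest edge, and starts carry a rounding error of up to 500 bp. A region in 2 windows counted once in totals. Coordinates are hg19, counted from 1. Strand, gene order and promoter sequences come from RefSeq tables of GRCh38.p14, and no coordinate was taken from them. All 10 genes were named, with every region within 10 kb of a start and the 3 widest in each window, and other regions of the windows were added so that each gene's account is complete. The genes, their lists and the motifs were chosen with earlier results of these data known. Other genes of the pathway were not analysed here because no hg19 annotation was used.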

Additional observations from a re-analysis of the deposited data

How the results depend on the processing

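Counts of regions followed the window and the width limit. With 50 kb in place of 100 kb there were 10 WT and 7 KO regions and a median of 1 per start, and with 200 kb there were 45 WT and 22 KO regions and a median of 4.5. The shares found in 1 list stayed within the intervals given for 100 kb: 50.0% and 64.4% of WT regions were not called in KO, and 28.6% and 27.3% of KO regions were not called in WT. Keeping widths from 276 bp left 12 WT regions and a median of 1 region per start. This limit is the median over both lists with shared regions counted in each, and the median over different regions was 235 bp. The median width was then 528 bp, with no region near CER1, SMAD2 or TGIF1. The shares found in 1 list were 16.7% of WT and 0% of KO regions. Shared regions are the wider ones in the whole lists too, with a median of 460 bp, beside 181 bp (WT-only) and 167 bp (KO-only). Whole-list shares at this limit were not computed, so these shares have no reference. Regions wider than 150 bp gave a median of 1.5 per start, and 37.5% of WT and 9.09% of KO regions found in 1 list. Distances from the midpoint and leaving out the LEFTY genes left the values they apply to within their intervals or within 1.5 times. Joining regions within 1 kb, 50% reciprocal overlap and counting edges within 1 kb as shared changed no value, and could not have. No region near the genes lay closer than 2.55 kb to another region, and all 10 shared ones had identical edges in both lists. From 4 starts with a region within 1 kb, limits of 500 bp, 2 kb and 5 kb gave 4, 5 and 5, and moving all starts by 500 bp, chosen after seeing the data, gave 4 and 5. No paired analysis was possible because the lists hold no values per replicate, which also means that no replicate could be left out. Without read counts, a weak region cannot be told from one that was not called.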
